A study of Rattus norvegicus with 2 samples.

Results

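The probes described here carry the names of 8 enzymes through which the liver makes and releases glucose: Pcx, Pck1, Pck2, Fbp1, G6pc, Gpt, Got1 and Sds. They were taken by name alone, as the spots whose gene symbol was exactly 1 of 9 enzyme symbols. No measured value entered this rule, although the 9 symbols were chosen with earlier results of these data known. No spot carried the symbol Tat, for tyrosine aminotransferase, which was not analysed here. Each of the 8 had 1 spot on each array, among 17158 distinct symbols kept. Liver cDNA was compared on 2 two-colour arrays between a pool of rats given γ-conglutin, a storage protein of lupin seeds, and a pool given vehicle. All rats of both pools were adult male Wistar rats on standard chow. All received a single intraperitoneal dose of 65 mg/kg streptozotocin, a toxin of the insulin-producing beta cells, after a 12 h fast, and had a glycaemia above 200 mg/dl 72 h later. Treatment with 120 mg/kg γ-conglutin in 0.9% NaCl, or with 0.9% NaCl alone, lasted 7 days. Both pools thus came from streptozotocin-diabetic rats, and no array of a rat without diabetes was analysed here. RNA of 5 rats was pooled per treatment, so that each treatment is 1 sample and differences between rats cannot be seen. On array 1 the vehicle pool was labelled with the dye Alexa555 and the γ-conglutin pool with Alexa647; on array 2 the same pools were hybridised with the labels exchanged. The arrays are therefore technical repeats of 1 comparison, no p-value can be given, and an SD over both arrays (n = 2) describes the measurement and not the rats.

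Gluconeogenesis runs glycolysis backwards and needs its own enzymes where a glycolytic step is irreversible. Pyruvate carboxylase (Pcx) makes oxaloacetate from pyruvate, phosphoenolpyruvate carboxykinase (Pck1 in the cytosol, Pck2 in mitochondria) turns it into phosphoenolpyruvate, fructose-1,6-bisphosphatase (Fbp1) removes a phosphate further along, and glucose-6-phosphatase (G6pc) releases free glucose. Alanine aminotransferase (Gpt), aspartate aminotransferase (Got1) and serine dehydratase (Sds) bring in carbon from amino acids. In the liver insulin lowers the transcription of Pck1 and G6pc, glucagon and glucocorticoids raise it, and loss of insulin is known to release glucose output from this restraint.

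The promoters of Pck1 and G6pc are shown because these 2 genes carry the best known hormone response of the pathway; the sequences of the array's probes were not used here. The 250 bases before the annotated start are given from RefSeq on the rat build GRCr8, 5′ to 3′, for Pck1 at chr3:182348322-182348571 and for G6pc, now named G6pc1 in the rat, at chr10:86807409-86807658, both on the plus strand. Capitals mark matches, on either strand, to ACGTCA, the core of a cyclic AMP response element, and to TGTTTT, the core of an insulin response sequence.
Pck1: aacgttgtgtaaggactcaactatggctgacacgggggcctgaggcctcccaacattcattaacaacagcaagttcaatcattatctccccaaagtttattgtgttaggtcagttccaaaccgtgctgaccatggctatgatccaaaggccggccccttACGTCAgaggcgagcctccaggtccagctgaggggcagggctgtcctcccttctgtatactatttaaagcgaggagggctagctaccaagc
G6pc: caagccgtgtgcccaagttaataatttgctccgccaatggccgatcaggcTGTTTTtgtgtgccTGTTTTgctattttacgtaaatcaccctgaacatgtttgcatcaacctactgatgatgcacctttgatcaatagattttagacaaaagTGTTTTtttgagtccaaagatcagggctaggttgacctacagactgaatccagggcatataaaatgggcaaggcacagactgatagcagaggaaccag
The Pck1 promoter held 1 match to ACGTCA and 0 to TGTTTT. The G6pc promoter held 3 matches to TGTTTT and 0 to ACGTCA. Of 33469 rat promoters of this length, 6.95% held ACGTCA and 20.4% held TGTTTT. The matches do not overlap each other, and they describe these letters only. Other forms of either element, and bases farther from the start, were not searched. A count of 0 therefore does not mean that a gene lacks the element.

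All 8 probes gave a signal above background in both dyes of both arrays, where above background means an intensity more than 2 SD of the local background over it. Signals over background ran from 164 to 47484 intensity units, and the dimmest was 4.57 times the 95th percentile of the empty spots in its channel. Ranked by brightness among all kept probes, G6pc lay at percentile 14.6, Pck1 at 21.3, Fbp1 at 21.4, Sds at 24.98, Pcx at 43.9, Gpt at 48.8, Got1 at 68.9 and Pck2 at 97.3. A probe's brightness depends on its own sequence and spot, so these ranks do not say which transcript was more abundant. Nor do they say how well a ratio was read: its SD over both arrays was 0.15 for G6pc, the dimmest, and 0.55 for Pck2, the brightest. No spot of the 8 was saturated.

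**Figure D1:**
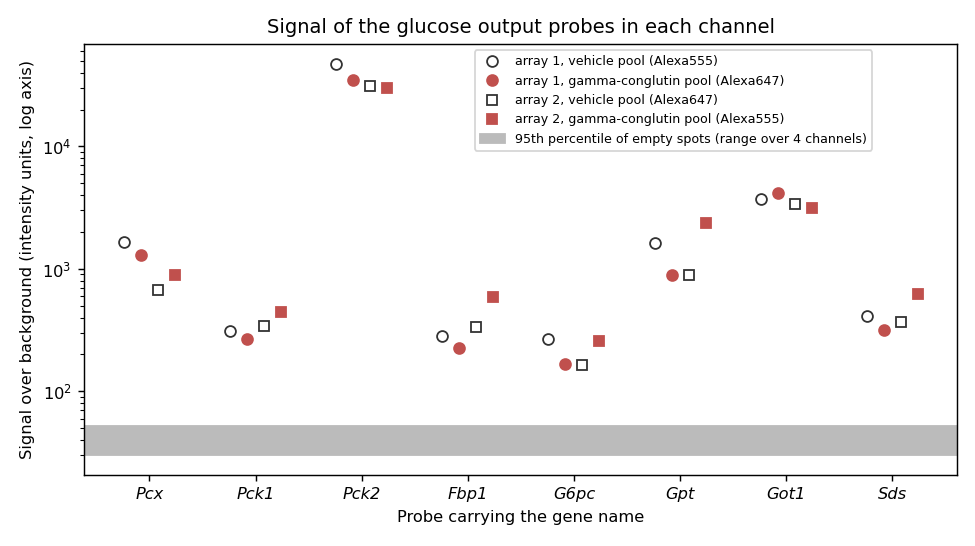
Signal over background of each probe (intensity units, log axis) in the vehicle pool (open) and the γ-conglutin pool (filled) on array 1 (circles) and array 2 (squares), with the 95th percentile of empty spots as a grey band. All 32 values lie above the band, from 164 for G6pc to 47484 for Pck2, and the pool that is brighter depends on the array for most probes.

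The comparison of the pools asks whether γ-conglutin went with another level of these transcripts in diabetic liver. None of the 8 probes differed between the pools by 1.5-fold in the same direction on both arrays, as was true of 0% of 21577 probes. When a log2 ratio of 0.32 was asked of both arrays instead, again with 1 sign, the count was also 0 of 8, against 0.306% of all probes. Ratios are given as log2 of γ-conglutin over vehicle after background correction and an intensity-dependent (loess) normalization of each array. The median of the 8 mean ratios was -0.0017, with 4 above 0 and 4 below, beside a median of 0.0084 over all genes; 53% of all probes had a mean above 0. Only Fbp1 and Sds had the same sign on both arrays, positive for both, as for 16.6% of all probes; 2 of 8 is not above the 32.7% of all probes that kept either sign. The count was 4 of 8 with loess inside print-tip blocks, where 37.8% of all probes kept their sign. It was 4 with the authors' net intensities, beside 39.8%, 3 with median centring, beside 26.4%, and 1 without normalization, beside 11.6%. The probes that kept their sign were not always Fbp1 and Sds. Both settings with a count of 4 had Fbp1 positive on each array, G6pc, Pck2 and Pcx negative, and Sds not among them. Median centring left Fbp1, positive, and Pck2 and Pcx, negative. The 1 probe without normalization was Pck2, negative. As the tissue was taken whole, fewer cells of a type and less RNA per cell cannot be told apart in any of these ratios.

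**Figure D2:**
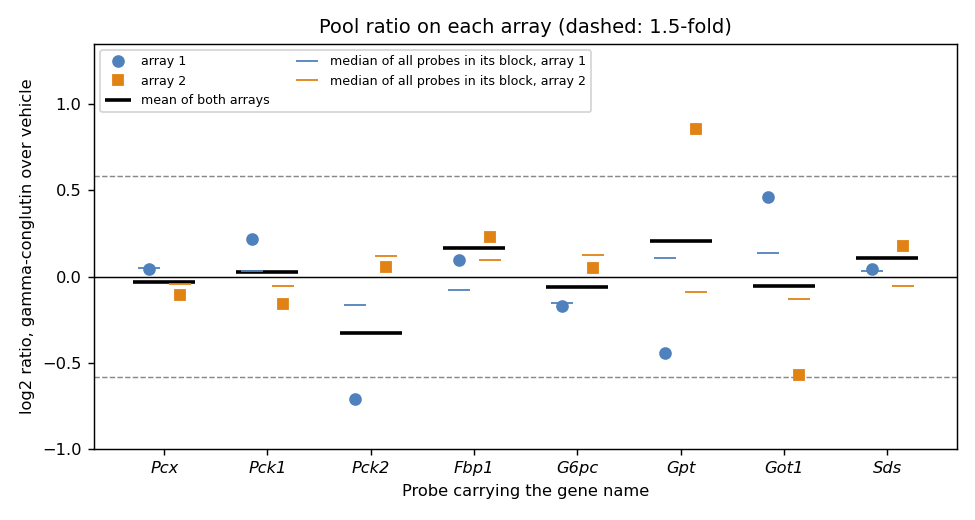
The log2 ratio of γ-conglutin over vehicle for each probe on array 1 (circles) and array 2 (squares), with the mean as a black bar, the median of the probe's block of spots as a short coloured line and 1.5-fold as dashed lines. Fbp1 and Sds have both points above 0, Pck2 passes the line on array 1 only and Gpt on array 2 only.

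Of the enzymes at the entry to the pathway, the Pcx probe had signals of 1645 units in the vehicle pool and 1286 in the γ-conglutin pool on array 1. On array 2 it had 673 and 899. The channel in Alexa555 was thus the brighter on both arrays, as for the typical library spot, whose median signal was 1646 in Alexa555 and 1240.0 in Alexa647 on array 1 and 1595 and 1132 on array 2. After normalization the Pcx ratios were 0.04 and -0.11, with a mean of -0.03 ± 0.11 (SD over 2 arrays). The 500 probes nearest in brightness had an SD of 0.10 in the mean ratio, so Pcx lay within their spread. Under 3 of 8 processing settings Pcx was instead negative on both arrays, with -0.05 and -0.03 for loess inside print-tip blocks. Its brightness shifted by -0.81 on the log2 scale from array 1 to array 2, relative to the median shift, where the SD of that shift over all probes was 0.47.

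The Pck1 probe had signals of 309 in the vehicle pool and 270 in the γ-conglutin pool on array 1, and of 340 and 445 on array 2. Its ratios were 0.22 and -0.16, and the mean was 0.03 ± 0.26. The arrays placed the γ-conglutin pool on opposite sides of the vehicle pool, and each value was close to or above the SD of 0.16 and 0.17 among probes of like brightness on that array. Pck1 had the most even spot of the 8, with a pixel SD of 5.02% to 7.17% of the raw intensity. Under none of 8 processing settings did its ratios share a sign.

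Pck2, the mitochondrial carboxykinase, had the brightest probe of the 8 and the lowest mean ratio. Its signals were 47484 in the vehicle pool and 34559 in the γ-conglutin pool on array 1, and 30988 and 29747 on array 2. The vehicle channel was the brighter on both arrays before normalization, by far more on array 1. Normalized ratios were -0.71 on array 1, a fold of 0.610, and 0.06 on array 2, a fold of 1.04, with a mean of -0.33 ± 0.55. On array 1 alone it was the 1 probe of the 8 lower by 1.5-fold, as were 0.677% of all probes. Among the 500 probes nearest in brightness the mean ratio had an SD of 0.18 and an average of -0.04.

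How the difference in Pck2 was shared between the arrays depended on the normalization, while its mean moved little. A dye shift that is alike on both arrays cancels in the mean, because array 2 is turned in sign. With median centring the ratios were -0.15 and -0.48, with loess inside each of the 48 print-tip blocks -0.58 and -0.08, and without normalization -0.46 and -0.06. The mean ran from -0.33 to -0.26 over the 8 settings. Both arrays were negative in 4 of them, those that did not use loess over the whole array. Under no setting did both arrays pass 1.5-fold.

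Further along, Fbp1 had signals of 283 in the vehicle pool and 224 in the γ-conglutin pool on array 1, and of 336 and 592 on array 2. The ratios were 0.10 and 0.23, folds of 1.07 and 1.17, and the mean was 0.16 ± 0.09. The mean lay beyond 1 SD of the 500 probes nearest in brightness, which was 0.083 around -0.0099, and stood at percentile 96.0 of the mean ratios of all probes. Both ratios were positive in 7 of the 8 settings. The exception was no normalization, with -0.27 and 0.73, where the median of all probes itself was -0.30 on array 1 and 0.42 on array 2. Relative to the median of its own block, Fbp1 had 0.18 and 0.14. The spot was uneven on array 1, with a pixel SD of 38.2% and 41.1% of the raw intensity, against 12.4% and 10.7% on array 2, and brighter by 0.76 on array 2. The part of the spot in the ratio was not tested.

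G6pc, the last step, had the dimmest probe, with signals of 266 in the vehicle pool and 166 in the γ-conglutin pool on array 1. On array 2 these were 164 and 259.6, nearly the same pair of values with the pools exchanged. The brighter value was in Alexa555 both times. The normalized ratios were -0.17 and 0.05, and the mean was -0.06 ± 0.15, within the SD of 0.08 among probes of like brightness. Its block had medians of -0.16 and 0.13, so that relative to its block G6pc had -0.01 and -0.08. Under 2 of the 8 settings G6pc was negative on both arrays, with -0.05 and -0.06 for loess inside print-tip blocks.

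Of the enzymes that feed in amino acid carbon, Gpt differed most between the arrays. The Gpt probe had signals of 1619.6 in the vehicle pool and 886 in the γ-conglutin pool on array 1, and of 894 and 2361 on array 2. The ratios were -0.44 and 0.86, the latter a fold of 1.81 and the 1 value of the 8 probes past 1.5-fold higher on array 2, as for 0.626% of all probes. The mean of 0.21 ± 0.92 was the highest of the 8 and rests on opposite values. The channel in Alexa555 was the brighter on both arrays, and the mean log2 ratio of Alexa647 over Alexa555 was -0.65, against an SD of 0.18 among probes of like brightness. This dye ratio is taken from the difference of the 2 array ratios, so it also holds any other disagreement between the arrays.

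Got1 went the opposite way by dye. Its signals were 3751 in the vehicle pool and 4175 in the γ-conglutin pool on array 1, and 3409 and 3115 on array 2. Pool ratios of 0.46 and -0.57 gave a mean of -0.05 ± 0.73. Alexa647 was the brighter dye, with a mean dye ratio of 0.52 against an SD of 0.20 among its neighbours in brightness. Gpt and Got1 were the 2 of the 8 probes with 1 dye brighter by a log2 ratio of at least 0.32 on both arrays, as were 3.41% of all probes. For neither did any of the 8 settings give the pools the same order on both arrays.

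Sds had signals of 416 in the vehicle pool and 316 in the γ-conglutin pool on array 1, and of 369 and 622 on array 2. Its ratios were 0.04 and 0.18, with a mean of 0.11 ± 0.10, beside an SD of 0.08 among probes of like brightness. The value on array 1 was near 0 and turned sign with the setting, to -0.04 with median centring and -0.01 with print-tip loess. Both arrays were positive in 4 of the 8 settings. These all used loess over the whole array and differed only in the background correction. Pck1 and Sds lay in the same block of spots, whose medians were 0.03 and -0.06, and differed in the direction of their ratio on array 2.

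Across the 8 probes the dye difference exceeded the pool difference for 6, as it did for 67.3% of all probes. This holds exactly where the arrays had opposite signs, so it restates the count of signs and is not a further result. Fbp1 and Sds were the other 2. Over all 21577 probes the pool ratios of the arrays had a Pearson's r of -0.44, a description across probes that share the same RNA and spots. The mean pool ratio had an SD of 0.12 over probes, and the mean dye ratio one of 0.19. Were the pool names exchanged on 1 array, the dye ratios would be the pool ratios in size: with the sign of array 2 turned, the means are -0.65 for Gpt, -0.39 for Pck2, -0.11 for G6pc, -0.07 for Sds, -0.07 for Fbp1, 0.08 for Pcx, 0.19 for Pck1 and 0.52 for Got1. The file headers name the pool of each column and the labels its dye, and the values above follow them.

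**Figure D3:**
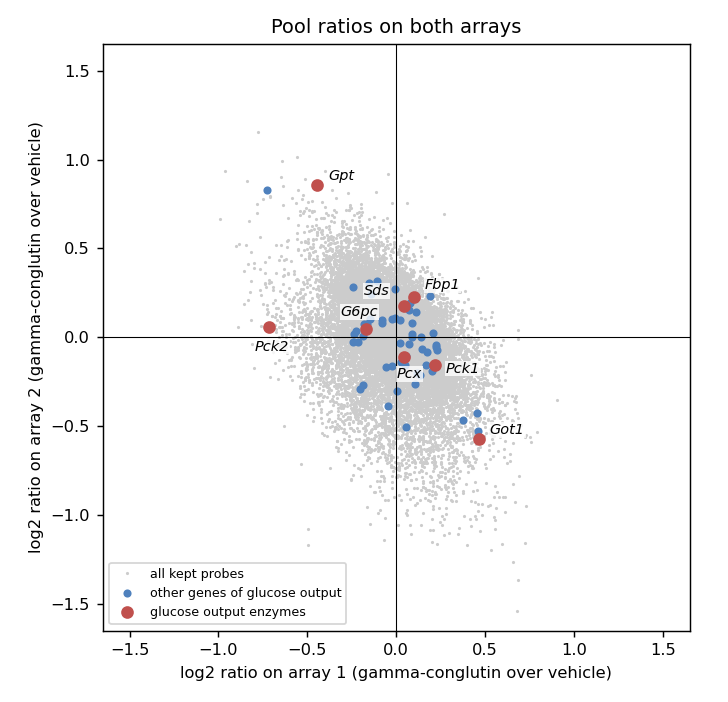
The log2 ratio of γ-conglutin over vehicle on array 1 (horizontal) and array 2 (vertical) for all 21577 probes (grey), 53 other genes of glucose output (blue) and the 8 enzymes (red). The cloud slopes downwards (r = -0.44), with Gpt at -0.44 and 0.86 and Got1 at 0.46 and -0.57 along its slope, and Fbp1 and Sds above 0 on both axes.

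The rest of the pathway was described through a list of 62 other symbols, alternative spellings included, of which 53 were measured. None passed 1.5-fold in the same direction on both arrays, or a log2 ratio of 0.32 on both. The mean ratio was above 0 for 29 and below 0 for 24, where 53.9% of all genes had a mean above 0. The median was 0.0081, beside 0.0084 over all genes. Both arrays had the same sign for 17 of 53, positive for 10 and negative for 7, beside 32.3% of all genes with the same sign on both. For the remaining 36 of the 53 the arrays had opposite signs, so that the dye difference exceeded the pool difference, as for 67.7% of all genes.

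By role, the steps shared with glycolysis, the glucose-6-phosphate transporter, the glucose-6-phosphatase G6pc3 and the fructose bisphosphatase Fbp2 together had 5 of 10 mean ratios above 0 and a median of 0.00. Glycogen breakdown had 5 of 7 above 0 and a median of 0.05. Feeders from lactate, glycerol and amino acids had 10 of 17 above 0 and a median of 0.04. Transcriptional regulators and the glucagon receptor had 5 of 12 above 0 and a median of -0.03. Enzymes of the opposing direction and their regulators had 4 of 6 above 0 and a median of 0.01. These counts stand beside 53.9% of all genes with a mean above 0. In the same order of lists, the arrays shared a sign for 2, 2, 6, 4 and 3 genes, beside 32.3% of all genes. The glucose transporter Slc2a2, through which glucose leaves the hepatocyte, had 0.05 and -0.15.

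The highest means among the 52 of these genes above background throughout were those of Slc25a11, Slc37a4 and Ldha. Slc25a11, the mitochondrial carrier that exchanges 2-oxoglutarate for malate, had 0.19 and 0.23, with a mean of 0.21 ± 0.03. Slc37a4, which carries glucose-6-phosphate to the phosphatase inside the endoplasmic reticulum, had 0.08 and 0.19. Lactate dehydrogenase A (Ldha) had -0.01 and 0.27. Slc25a11 and Slc37a4 were thus higher in the γ-conglutin pool on both arrays by less than 1.5-fold, and Ldha on array 2 only. With the sign of array 2 turned, the means of Slc25a11, Slc37a4 and Ldha became -0.02, -0.06 and -0.14.

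The lowest were Pfkfb1, Gpi1 and Nr3c1. Pfkfb1, the liver enzyme that sets the level of fructose-2,6-bisphosphate, an inhibitor of Fbp1, had -0.20 and -0.29 and a mean of -0.25 ± 0.06. Glucose-6-phosphate isomerase (Gpi1) had -0.19 and -0.27. The glucocorticoid receptor (Nr3c1) had 0.05 and -0.50. Pfkfb1 and Gpi1 were lower in the γ-conglutin pool on both arrays, each below 1.5-fold, while the arrays disagreed for Nr3c1. With the sign of array 2 turned, the means of Pfkfb1, Gpi1 and Nr3c1 became 0.04, 0.04 and 0.28. Which genes stand at either end therefore follows the pool named for each dye in the headers: turned, the highest means were those of Tpi1 (0.49), Gckr (0.44) and Slc16a1 (0.42), and the lowest those of Gaa (-0.78), Ppargc1a (-0.26) and Gcgr (-0.23), all 6 named after their values were seen. The Alexa647 signals of Gaa, 12.3 and 17.3, and of Ppargc1a, 21.9 and 33.5, lay below the 95th percentile of the empty spots, 30.1 and 36.0.

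**Figure D4:**
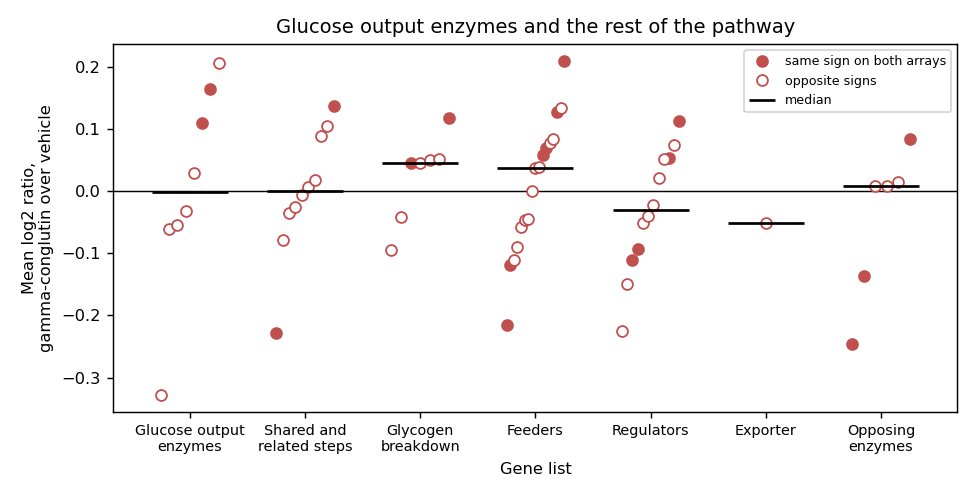
Mean log2 ratio (γ-conglutin over vehicle) for the 8 enzymes and for the 53 other genes of the pathway by role, each point a gene (filled where both arrays had the same sign) and each black bar the median of a list. The medians lie between -0.05 for the exporter, which is 1 gene, and 0.05 for glycogen breakdown, and the 8 enzymes spread from -0.33 for Pck2 to 0.21 for Gpt.

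Names and probes on these arrays have a limit that touches every value above. The brightness of a probe repeated between arrays, with an r of 0.98 across 21577 probes. For 1004 genes with 2 probes, however, the brightness of the pair had an r of 0.076 and the mean ratio an r of 0.041. The labelled tissue could not be checked by brightness: probes named for hepatocyte genes, 11 of 13 listed symbols, ranged from percentile 9.41 (Apob) to 93.5 (Alb), while Ins1, the beta cell's insulin gene, lay at 96.0. All 11 were above background throughout and had a median of the mean ratios of -0.05, with 3 above 0 and 8 below. Of all genes, 53.9% had a mean above 0. The arrays had the same sign for only 1 of the 11, beside 32.3% of all genes. Listed kidney and intestine genes, which mark the other tissues that make glucose, had a median of -0.04 over 6 genes, 5 of them below 0. Blood cell genes had 0.10 over 3, with Hba-a1 (0.10) and Ptprc (0.13) above 0 and Alas2 (-0.18) below. The 2 pancreas genes had a median of -0.05 but lay on both sides of 0, Ins1 at 0.19 and Cpb1 at -0.29. Each ratio is therefore that of the probe carrying the name, a mouse name on an array hybridised with rat cDNA.

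**Figure D5:**
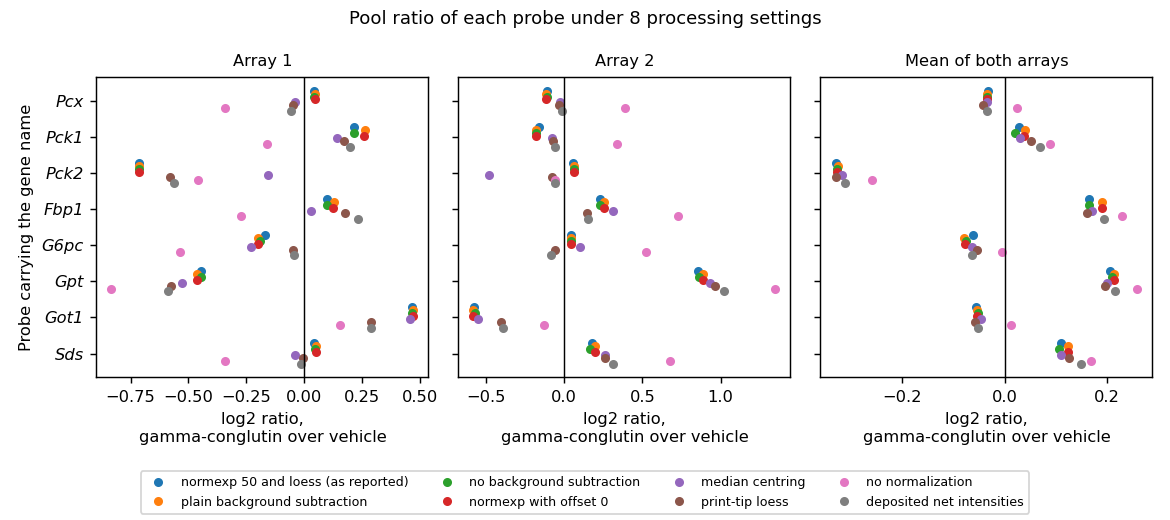
The log2 ratio of γ-conglutin over vehicle for each of the 8 probes on array 1, array 2 and as their mean under 8 processing settings (colours). Means move little, for example from -0.33 to -0.26 for Pck2 and from 0.16 to 0.23 for Fbp1. The values of each array move more. A dye shift alike on both arrays cancels in the mean.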

How the data were processed

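Each of the 2 array tables gives, per the file headers, the mean raw intensity, the local background intensity and their SDs for 23232 spots in each dye (21766 library, 231 Gapdh control and 1235 empty spots), the authors' net intensity, the ratio of the net intensities and a spot diameter, another measure that was not used here. The deposited log2 value table equals the log2 of that deposited ratio, Alexa555 over Alexa647. No source used here says how the authors made the net intensity.

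Here, raw intensities were background-corrected by normexp (offset 50) and each array normalized by global loess on library spots, in limma 3.58.1 under R 4.3.3. Array 2 was turned in sign to give γ-conglutin over vehicle. Replicate spots were averaged per probe. Probes had to exceed background in 1 or more channels on each array, which kept 21577 and removed 56. The brightest probe stands for a gene that has several. With 1 pool per treatment no test was made; called means past 1.5-fold in the same direction on both arrays. The steps were also run with known folds put into 200 probes, alike on both arrays. The outcome is not given here, and no value above rests on that run. The precision is limited by the number of arrays.

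The members and lists were chosen with earlier results of these data known. Named genes were all members, the 3 highest and 3 lowest other pathway genes above background throughout, and any past 1.5-fold on both arrays. No gene was named for a likeness to a member, since 2 arrays give no pattern to match. Rat symbols were matched for 9 of 9 names in the RefSeq table of GRCr8, 6 with a promoter entry. Summaries used Python 3.11.15, numpy 2.4.6 and pandas 2.3.3, and figures matplotlib 3.10.9. Alternatives covered background correction, normalization, the filter, the size rule, several probes per gene and each array alone.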

Additional observations from a re-analysis of the deposited data

How the results depend on the processing

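The count of enzymes past 1.5-fold on both arrays was 0 under every background, normalization, filter and size setting run, and 1 on each array alone (Pck2 on array 1, Gpt on array 2). The count with the same sign on both arrays was 2 as reported and 3 with median centring. It was 4 with print-tip loess and with the deposited net intensities, a setting chosen after seeing the data, and 1 without normalization, where 37.8%, 39.8% and 11.6% of all probes kept their sign. The median over the 8 enzymes was 0.017 with the net intensities and 0.057 without normalization, and 0.042 to 0.053 on 1 array alone. The median over the other pathway genes was 0.069 without normalization and -0.023 to 0.025 on 1 array alone. Without normalization the median mean ratio of all probes was itself 0.06. The cause was not tested. The mean ratio of each enzyme on both arrays moved by less than its SD over the arrays in all settings. For Gpt, Got1 and Pck2 that SD is wide, so this is a weak check. It is weak also because a dye shift alike on both arrays cancels in the mean. The sign of the mean turned only without normalization, for Pcx (0.03) and Got1 (0.01). No paired analysis was possible because the only pairing, that of the pools on an array, is part of every ratio. Signal over background was lowest for G6pc, Pck1, Fbp1 and Sds, and its part in their ratios was not tested.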

Other observations

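Of the other pathway genes, 6 carried 2 probes, and for 5 of them the probes had mean log2 ratios of γ-conglutin over vehicle of opposite sign, beside 47.6% of all 1004 genes with 2 probes or more, read on their 2 brightest. For Nr3c1 the brighter probe had -0.22 and the dimmer 0.06. Got2, the mitochondrial aspartate aminotransferase, had -0.09 on the brighter and 0.18 on the dimmer. Hnf4a, a transcription factor of hepatocytes, had -0.05 and 0.09. Foxa2 had 0.11 and -0.03, and Creb1, the factor that binds cyclic AMP response elements, -0.04 and 0.04. Aqp9, the channel through which glycerol enters hepatocytes, was the exception, with 0.06 and 0.01. These genes were singled out after their values were seen, and each of the 8 enzymes has only 1 probe, so the same comparison cannot be made for them.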
